A study of Mus musculus with 2 samples.

Results

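Regulators of G protein signalling (RGS proteins) shorten the signals of G protein-coupled receptors. A receptor such as a chemokine receptor loads its G protein alpha subunit with GTP, and an RGS protein speeds the hydrolysis of that GTP, so that the alpha subunit closes on its beta and gamma partners again. In lymphocytes these proteins limit how long a cell follows chemokines and sphingosine-1-phosphate (S1P), the lipid that draws T cells out of lymphoid organs. The set described here holds 10 mouse Rgs genes, Rgs1, Rgs2, Rgs3, Rgs9, Rgs10, Rgs11, Rgs14, Rgs16, Rgs18 and Rgs19. They were selected by gene symbol, for this role in lymphocytes, from the 24081 genes of the table, and all 10 had a row. The choice was made with earlier results of these data known.

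RNA was read from regulatory T cells (Treg cells) of 5-week-old C57BL/6 mice, sorted from lymph nodes and spleen as CD4+ YFP+ cells. Both groups carried Cre recombinase and YFP on 1 Foxp3 allele (Foxp3cre/wt), so deletion was driven from the Foxp3 locus. The WT group had 1 wild-type and 1 floxed allele of the targeted gene of the SUMO pathway, and the KO group had both alleles floxed (fl/fl). WT is thus a Cre-carrying control with 1 floxed allele, not an unmodified mouse. Foxp3 is X-linked, so in such mice a share of the Treg cells uses the unmodified allele and lacks Cre, and the YFP sort took the others. Each library was a pool of cells from 5 to 10 mice, with 1 library per group. There is therefore no spread between mice, no test and no p-value, and every difference below compares these libraries.

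The WT library held 11662867 reads in genes and the KO library 23789264. Both samples carry the same wild-type genotype label, and the titles WT and KO are what separates them, so every direction rests on those titles. Levels below are RPM, reads per 1000000 gene reads, scaled with TMM factors (edgeR's correction for composition). Folds are ratios of these levels with exact 95% intervals from the read counts, which cover counting error only. A gene was called higher or lower in KO at 1.5-fold, on the log2 ratio with a pseudocount of 1 scaled read, if its mean over both libraries was at least 20 reads. Of the Treg markers Cd3e, Cd3d, Cd4, Foxp3, Il2ra, Ikzf2 and Ctla4, all 7 were read in both libraries, and they summed to 4960 and 6250 RPM. They did not move together: Foxp3 was 1.85-fold higher in KO (1.81 to 1.90), while Ikzf2 and Ctla4 were 1.59-fold and 1.61-fold lower. Markers of other cells were read too. All 7 monocyte and macrophage markers had reads in both libraries and summed to 492 RPM in WT and 445 in KO, led by Csf1r with 3192 and 5440 reads. All 8 B cell markers had reads, with sums of 147 and 116. Platelet markers summed to 1.00 and 0.432, with Gp9, Gp1bb and Gp6 at 0 in both.

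The libraries of sorted cells held RNA of 8 of the 10 Rgs genes above the floor. The levels of these genes hardly differed between the groups apart from that of a single gene. Rgs9 was 2.23-fold lower in the KO library (interval 1.72 to 2.89). Rgs19, Rgs10 and Rgs14 were higher by small amounts, between 1.17-fold and 1.28-fold. Rgs2 and Rgs3 were lower by still smaller amounts, and Rgs1 and Rgs16 could not be told from no difference at this depth. Of the 8 measured genes none was called higher, 1 was called lower and 7 lay between. Among all 10899 expressed genes 7.43% were called higher and 5.51% lower, so a single call among 8 genes does not set these genes apart. Their median log2 ratio was 0.06, against 0.01 over all expressed genes, and with total gene reads as the scale these were -0.02 and -0.06. Summed over the 10 genes, the level was 698 RPM in WT and 748 in KO (1.07-fold, 1.04 to 1.10), a difference that total gene reads as the scale took to 1.02-fold (0.99 to 1.04). In bulk RNA, fewer cells with a transcript and less of it per cell cannot be told apart.

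**Figure D1:**
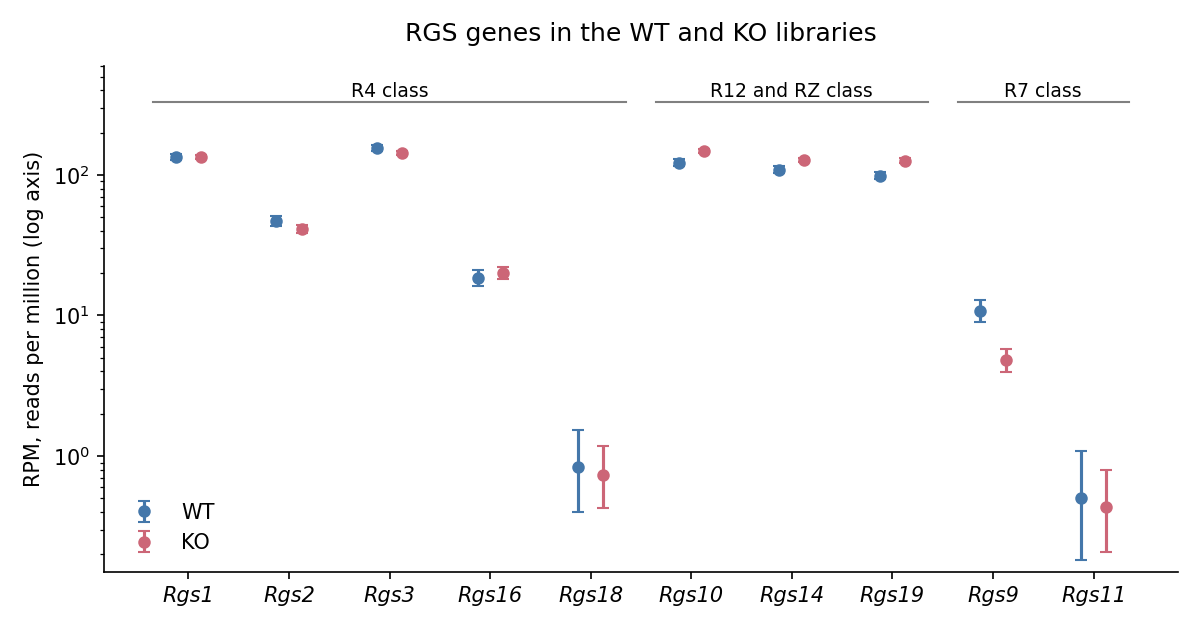
Level of each Rgs gene in RPM on a log axis, in the WT library (blue) and the KO library (red), grouped by class. Points are single libraries and bars are exact 95% Poisson intervals of the read count. Rgs9 shows the widest gap between its points, at 10.8 and 4.84, while Rgs18 and Rgs11 lie below 1 in both.

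The 10 genes belong to 4 classes of the family. Rgs1, Rgs2, Rgs3, Rgs16 and Rgs18 are R4 proteins, most of them little more than the RGS domain itself. Rgs10 and Rgs14 are of the R12 class, Rgs19 of the RZ class, and Rgs9 and Rgs11 of the R7 class, whose members work bound to the beta subunit Gnb5. As sums over these members, the R4 class was nearly level, at 356 and 340 RPM (0.956-fold, 0.921 to 0.992). The R12 class stood at 231 and 276 (1.19-fold, 1.14 to 1.25), and the R7 class at 11.3 and 5.27 (0.467-fold, 0.363 to 0.601). Of the R7 reads, Rgs9 held 129 of 135 in WT and 112 of 122 in KO, so the R7 sum largely repeats the Rgs9 ratio.

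Rgs9 is best known from the striatum, where it ends the signals of dopamine receptors. The WT library had 129 reads of Rgs9 and the KO library 112, although the KO library was about 2 times as deep. Scaled, that is 10.8 RPM in WT and 4.84 in KO. The log2 ratio of -1.15 passed 2-fold as well, which 2.08% of expressed genes did in the lower direction, and 176 of the 10899 expressed genes had a lower ratio. Rgs9 made up 1.54% of the reads of the 10 genes in WT (exact binomial interval 1.29 to 1.83) and 0.647% in KO (0.533 to 0.778). The gene lies on chromosome 11, 109225355 to 109298129 on the minus strand (mm10), and in GENCODE M21 no exon of another gene overlaps its exons. Its neighbours among the pathway genes lay inside 1.5-fold. Gna13, which encodes a G protein alpha subunit and lies 64.7 kb away, had 242 and 233 RPM (log2 ratio -0.06), and Axin2, 275 kb away, had a log2 ratio of 0.30.

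The other R7 genes were near the limit of detection. Rgs11 had 6 and 10 reads, an interval of 0.284-fold to 2.89-fold that allows a difference of over 2-fold either way. Rgs6 and Rgs7 had 0 reads in both libraries, which allows up to 0.25 RPM in WT and 0.13 in KO. The partner gene Gnb5 had 62 and 90 reads, with a fold of 0.751 whose interval of 0.537 to 1.05 includes no difference. The membrane anchors Rgs9bp and Rgs7bp had 1 and 3, and 2 and 1 reads. Of the 4 R7 genes, Rgs9 alone passed the floor of 20 reads.

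The start regions of Rgs9, at the low end of the ratios, and Rgs19, at the high end, are shown for the base composition at these 2 starts. Each window runs from 250 bases before the RefSeq start to 50 bases from it on (GRCm38.p6, the same build as mm10, minus strand for both). Capitals mark the 50 bases from the start on. The RefSeq start of Rgs9 differs from the GENCODE one, and its whole window lies upstream of the GENCODE span given above, which ends at 109298129. For Rgs19, the first of 3 listed starts is given.
Rgs9, chr11:109298132-109298431: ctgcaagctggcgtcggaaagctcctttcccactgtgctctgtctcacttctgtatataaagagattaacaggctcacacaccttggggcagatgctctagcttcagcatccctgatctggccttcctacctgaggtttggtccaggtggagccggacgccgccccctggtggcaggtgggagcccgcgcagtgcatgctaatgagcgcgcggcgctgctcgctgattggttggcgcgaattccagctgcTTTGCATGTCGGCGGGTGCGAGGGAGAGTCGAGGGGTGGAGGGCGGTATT
Rgs19, chr2:181693928-181694227: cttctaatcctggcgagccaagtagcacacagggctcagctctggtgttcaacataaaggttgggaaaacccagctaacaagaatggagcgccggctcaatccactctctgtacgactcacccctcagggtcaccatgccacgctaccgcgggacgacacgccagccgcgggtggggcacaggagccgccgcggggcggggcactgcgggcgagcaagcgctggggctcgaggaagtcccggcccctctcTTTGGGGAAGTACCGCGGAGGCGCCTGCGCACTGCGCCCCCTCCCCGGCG
The Rgs9 window held 19 CG pairs at a GC content of 60.3% and the Rgs19 window 27 at 66.7%, against medians of 7 and 52.7% over 32851 windows. The other windows of Rgs19 held 37 CG pairs at 72.7% and 4 at 53.3%, so its starts lie on both sides of the median count. A window was listed for 6 of the 10 genes. Searched on both strands, none of their windows held GTAAACA (a forkhead motif, in 3.65% of all windows), TGANTCA (AP-1, 7.81%) or TGTGGTT (Runx, 5.27%), which says only that these letters are not there.

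Rgs1, an R4 protein made by activated lymphocytes, dampens migration towards chemokines. It had 1608 reads in WT and 3123 in KO, or 134 and 135 RPM. The fold of 1.00 had an interval of 0.945 to 1.07, so counting error leaves room for a few percent either way. Rgs16, another R4 gene induced on activation, had 223 and 465 reads (18.6 and 20.1 RPM). Its fold of 1.08 (0.917 to 1.27) did not differ detectably from 1.

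Rgs2 acts mainly on the Gq class of alpha subunits. It had 564 and 961 reads, or 47.1 RPM in WT and 41.5 in KO (0.881-fold, 0.793 to 0.979). Rgs3, the R4 gene with long splice forms, had 1859 and 3314 reads, or 155 and 143 RPM (0.922-fold, 0.871 to 0.976). Both lay under 1 by more than counting error and well inside 1.5-fold. Rgs18, known from platelets and other blood cells, was close to absent, with 10 and 17 reads (0.879-fold, 0.380 to 2.15), and was not measured.

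Rgs10 and Rgs14 act on the Gi class of alpha subunits, which chemokine receptors use, and Rgs14 also binds Gi through a second domain. Rgs10 had 1467 and 3433 reads, or 122 RPM in WT and 148 in KO (1.21-fold, 1.14 to 1.29). Rgs14 had 1305 and 2960 reads, or 109 and 128 RPM (1.17-fold, 1.10 to 1.25). Rgs19, also called GAIP, acts on Gi as well. It had 1185 and 2923 reads, or 98.9 and 126 RPM (1.28-fold, 1.19 to 1.37). The intervals of these 3 genes lie above those of Rgs1, Rgs2 and Rgs3 and overlap that of Rgs16.

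**Figure D2:**
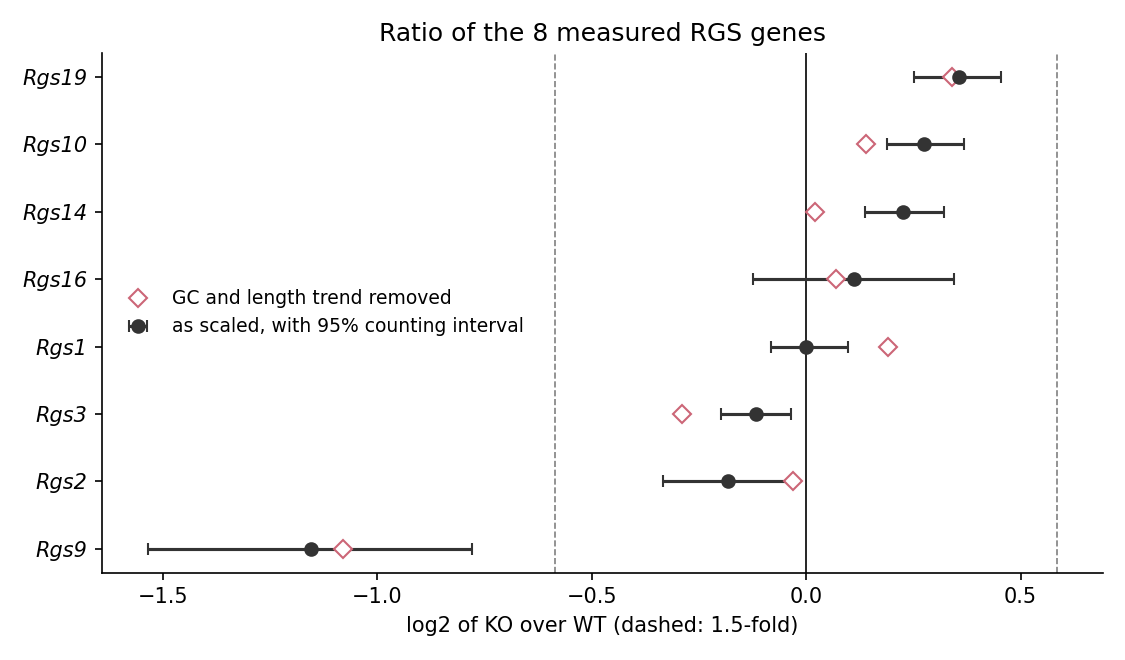
Log2 of the KO over WT ratio for the 8 measured Rgs genes. Filled points with bars give the ratio without pseudocount and its exact 95% counting interval, open diamonds the ratio after removal of the GC and length trend, and dashed lines 1.5-fold. Rgs9 alone lies beyond a dashed line, and the order of the other genes changes between the 2 kinds of point.

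The order among the small differences changed when the trend with base composition and transcript length, called the GC trend below, was removed. Across expressed genes the log2 ratio followed the GC content of the longest coding transcript, with a median of -0.19 in the 10% of genes lowest in GC and 0.37 in the 10% highest. GC content ran from 37.4% for Rgs1 to 57.6% for Rgs14 among the 8 measured Rgs genes. With the trend on GC content and length removed, Rgs14 was at 0.02 and Rgs2 at -0.03 on the log2 scale, both with intervals that include no difference. Rgs1 then stood at 0.19 (interval 0.10 to 0.28) and Rgs3 at -0.29 (-0.38 to -0.21). Rgs10 was at 0.14, Rgs19 at 0.34 and Rgs9 at -1.08, so these kept their side. The removal took the calls over all genes from 810 higher and 600 lower to 441 and 617, or from 57.4% to 41.7% higher. With total gene reads as the scale, 45.1% of calls were higher.

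**Figure D3:**
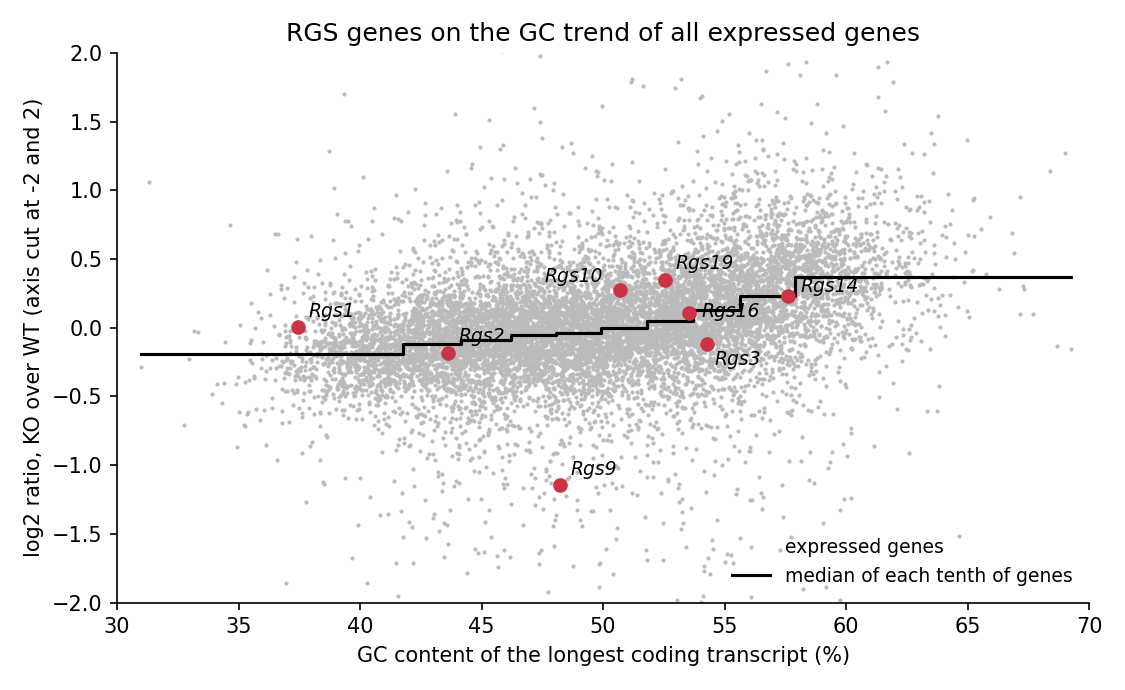
Log2 ratio of KO over WT against the GC content of the longest coding transcript, for expressed genes (grey) and the 8 measured Rgs genes (red). The black steps are medians over bins that each hold 10% of the genes by GC content, rising from -0.19 to 0.37. Rgs9 lies far below the steps, Rgs1, Rgs10 and Rgs19 above them and Rgs3 below.

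Per length of the longest coding transcript, the levels of the 8 measured genes had the same order in both libraries. Rgs10 led with 139 RPKM (RPM divided by the length in kilobases) in WT and 168 in KO, on a transcript of 880 bases. Rgs19 followed with 65.5 and 83.5, and Rgs14 with 46.2 and 54.2. The R4 genes came next: Rgs1 had 34.9 and 35.1, Rgs3 33.0 and 30.5, Rgs2 15.6 and 13.7, and Rgs16 7.96 and 8.58. Rgs9 was last in both, at 3.11 and 1.40. The order was the same with the union of all exons as the length. Rgs1 and Rgs3 are neighbours whose WT values differ little, and the transcript forms in use are unknown, so their order is uncertain. The places of the leading genes depend on the form as well. The shortest coding transcripts have 373 bases for Rgs10, 424 for Rgs19, 409 for Rgs1 and 496 for Rgs3. By raw reads alone Rgs3 led in WT and Rgs10 in KO.

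Several of the genes sit together on chromosome 1. Rgs2, Rgs13, Rgs1, Rgs21 and Rgs18 lie within 776 kb (143999338 to 144775435, mm10), all on the minus strand. Their levels had little in common. Rgs1 and Rgs2 were well expressed, Rgs18 was below 1 RPM, Rgs13 had 1 and 0 reads, and Rgs21 had none. Rgs16 lies apart on the plus strand, 40.0 kb from Rgs8, an R4 gene with 2 and 1 reads. An antisense gene, Gm28513, overlaps 10.1% of the exon bases of Rgs16 from the other strand, and the strand setting of the counting is unknown here.

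The 11 Rgs genes outside the set added little RNA. They summed to 8.01 RPM in WT and 7.64 in KO, nearly all of it Rgs12, the large R12 protein, with 90 and 171 reads (0.983-fold, 0.757 to 1.28). Another 6 of them had no read in either library. The RGS domain genes of the Wnt pathway, Axin1 and Axin2, were both 1.23-fold higher, inside 1.5-fold.

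The genes for G protein alpha subunits of all classes went both ways. Of 9 expressed genes 2 were called higher, 2 lower and 5 lay between, with a median of -0.06. Over all expressed genes 7.43% were called higher and 5.51% lower. Gnai2, the main Gi subunit of lymphocytes, had 1550 RPM in WT and 2330 in KO (1.51-fold, 1.48 to 1.53), just past the threshold. Removal of the GC trend brought its log2 ratio to 0.43, below the threshold, and total gene reads as the scale also ended the call. Gnai3, its close relative, had 326 and 275 (0.844-fold, 0.811 to 0.878). The Gq class genes Gna15 and Gnaq were 2.21-fold and 1.85-fold lower, with log2 ratios of -1.37 and -0.86 after the GC trend was removed. Gnal was 1.72-fold higher on 51 and 170 reads, and part of its exons overlaps those of Mppe1 from the other strand. Among 8 beta and gamma genes 1 was called lower, Gng2 (58.8 and 39.2 RPM, 0.666-fold). Its log2 ratio was -0.46 without the GC trend, and it was not called with a pseudocount of 5. The gene Gm48283 overlaps 20.4% of the exon bases of Gng2 from the other strand. The other named beta and gamma genes lay inside 1.5-fold, with log2 ratios of 0.42 for Gnb2, -0.34 for Gng10 and 0.23 for Gng12. Most exon bases of Gng10 are shared with Gm20503 on the same strand.

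The receptors upstream of these proteins included many with less RNA in KO. Of 32 expressed receptor genes 10 were called lower, none higher and 22 between, with a median log2 ratio of -0.38. Over all expressed genes 5.51% were called lower and 7.43% higher, with a median of 0.01. With the GC trend removed, 11 receptor genes were called lower and 1 higher. With total gene reads as the scale, 13 were called lower and none higher. The lowest ratios were those of the tissue homing receptors Cxcr3 (-4.02), Gpr15 (-3.69), Ccr4 (-3.51) and Ccr2 (-2.45), with exons of Gpr15 overlapping Cpox from the other strand. Cxcr5, the receptor for entry into follicles, was picked out after its values were seen and had 68.3 RPM in WT and 21.1 in KO (3.23-fold lower). S1pr1, Cxcr4 and Ccr7 lay inside 1.5-fold. S1pr1, the S1P receptor for exit from lymphoid organs, had 957 and 1180 RPM (1.23-fold, 1.20 to 1.26). Cxcr4, the receptor for CXCL12, was 1.14-fold higher (1.06 to 1.23) and Ccr7, the receptor for entry into lymph nodes, 1.39-fold higher (1.34 to 1.44).

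**Figure D4:**
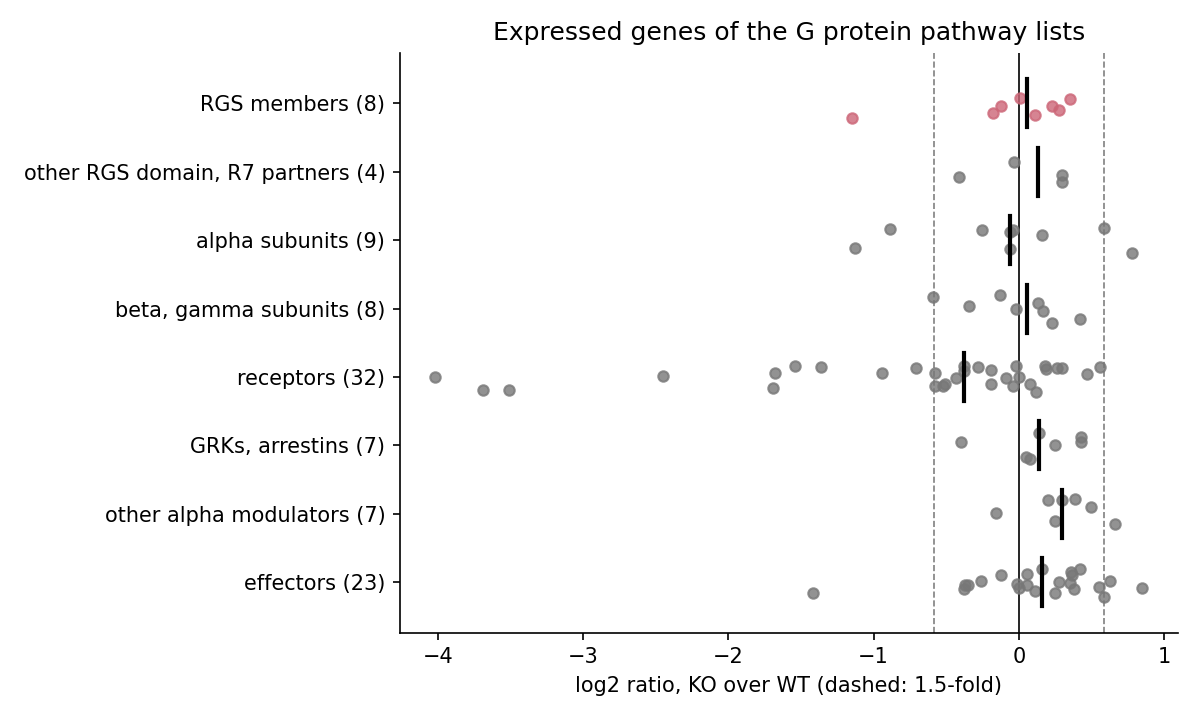
Log2 ratio of KO over WT for each expressed gene of the 8 lists, 1 point per gene, with the number of genes in brackets. Black bars are list medians, dashed lines 1.5-fold, and the vertical scatter has no meaning. The Rgs genes (red) cluster near 0 apart from Rgs9, while the receptors reach down to -4.02.

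Most genes for other regulators of the pathway lay inside 1.5-fold. All 7 GRK kinase and arrestin genes, which switch off the receptor itself, lay inside 1.5-fold, with a median of 0.14, or -0.03 with the GC trend removed. The largest ratios there were 0.43 for both Grk5 and Grk6, -0.40 for Grk4 and 0.25 for Adrbk1. Grk6 lies 60.4 kb from Rgs14 on chromosome 13. Of 7 other modulators of alpha subunits 1 was called higher, Ccdc88c (1.58-fold, log2 ratio 0.26 without the GC trend, and no longer called with total gene reads as the scale). The median of these 7 modulators was 0.30, or 0.21 with the GC trend removed, against 0.01 over all expressed genes, and 6 of them had ratios above 0. Over all expressed genes 7.43% were called higher and 5.51% lower. The lack of a call among 7 GRK and arrestin genes therefore does not set them apart. Gpsm3, Gpsm1 and Gipc1 had log2 ratios of 0.50, 0.39 and 0.30, and exons of Gpsm3 overlap Pbx2 on the same strand.

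Of 23 expressed effector genes 3 were called higher, 1 lower and 19 lay between, with a median of 0.16. The shares over all expressed genes were 7.43% higher and 5.51% lower. Among those called higher, Adcy6, an adenylyl cyclase, was 1.81-fold higher (1.64 to 1.99) and the PI3K regulator Pik3r5 1.55-fold. With the GC trend removed these stood at 0.58 and 0.37 on the log2 scale, both under 1.5-fold, and with total gene reads as the scale Adcy6 was called and Pik3r5 was not. Plcb4, a phospholipase C driven by Gq, was 2.71-fold lower on 108 and 77 reads, with -1.32 after removal.

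Some Rgs genes are also expressed in B cells and myeloid cells. The macrophage and B cell marker sums given above were 492 and 445, and 147 and 116 RPM, each lower in KO than in WT. The part of such cells in the Rgs levels was not tested.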

How the data were processed

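The authors deposited 1 table of raw read counts per gene symbol for both libraries. The submitters' processing notes name the build mm10, HTSeq and TopHat2 2.0.3. The annotation and strand setting were not given in the sources used here. Library sizes exclude the 5 rows for reads outside genes, and 76.6% of counted reads lay in genes in each library. The labels name no molecular identifiers, so reads may not be independent molecules and intervals may be too narrow.

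Counts were scaled with TMM factors (edgeR 4.0.16, R 4.3.3). Log2 ratios use a pseudocount of 1 scaled read. Folds and Clopper-Pearson intervals at 95%, conditional on the summed reads, use none. Ratios and calls were computed across all genes. GC content and length are those of the longest coding transcript in GENCODE M21. The alternative removes cubic trends on both, fitted by least squares. The scripts were tested on simulated data. Python 3.11.15, pandas 2.3.3, numpy 2.4.6, scipy 1.17.1 and matplotlib 3.10.9 were used.

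The Rgs genes, the lists and the GC alternative were chosen with earlier results of these data known. All 10 members are named. From each other list up to 4 expressed genes with the largest absolute ratio are named, and always Gnai2, Gnai3, S1pr1, Cxcr4 and Ccr7, as well as listed genes that neighbour a member. Cxcr5 and the Gq class genes were added after their values were seen. The listed symbols Grk2, Grk3 and Ric8a had no row, and Adrbk1 and Adrbk2 are older symbols of the first and the second. The targeted gene and 1 effector that the rule names are not reported here.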

Additional observations from a re-analysis of the deposited data

How the results depend on the processing

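Rgs9 was the 1 gene of the 8 called lower, and none was called higher, under all 8 alternatives, with its log2 ratio between -1.22 and -1.08. The counting interval left out 1-fold for 6 genes as scaled and for 5 with the GC and length trend removed, where Rgs1 entered and Rgs2 and Rgs14 left. Over all genes, calls numbered 810 higher and 600 lower. They numbered 441 and 617 with the GC trend removed, 1960 and 1542 with a floor of 1 read, 509 and 309 with a floor of 100 reads, and 173 and 227 at 2-fold. Calls in the other 7 lists of the pathway numbered 20, of which 10 were among the 32 expressed receptor genes. The rest of these lists held 4, 9, 8, 7, 7 and 23 expressed genes. Among all 10899 expressed genes 7.43% were called higher and 5.51% lower. With a floor of 1 read, which lets more genes into each count, the 7 lists had 37 calls, and at 2-fold 10. Of 296 alternative values 45 moved, counts by over 1.5 times ratios by more than their counting error and medians by more than that of the Rgs gene with the narrowest interval. A total of 10 values near 0 changed sign, the log2 ratio of Rgs1 (-0.07 with total gene reads) and 9 medians. The median of the Rgs genes was -0.02 with total gene reads and -0.06 with a floor of 1 read. Scaling by total gene reads shifted ratios by -0.08 on the log2 scale. No paired analysis was possible because each group has 1 library, and for the same reason no library could be left out. For Rgs11 and Rgs18, which lie under the floor of 20 reads, the counting intervals allow a difference of over 2-fold either way.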

Other observations

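The genes of the Gq class were compared after their values were seen, since Rgs2 acts on this class. Of its 4 alpha subunit genes, Gna15 had 105 reads in WT and 92 in KO (0.453-fold, interval 0.339 to 0.605) and Gnaq 256 and 267 (0.539-fold, 0.453 to 0.643). Gna14, which lies under the floor of 20 reads, had 21 reads in WT and 1 in KO (0.0246-fold, 0.000596 to 0.153). Gna11 did not differ detectably, with 216 and 466 reads (1.12-fold, 0.947 to 1.32). Plcb4, an effector of this class, had 108 and 77 reads (0.369-fold, 0.272 to 0.499). The other expressed phospholipase C beta genes had more reads and lay on the other side of 1, Plcb2 with 1469 and 3447 reads (1.21-fold, 1.14 to 1.29) and Plcb3 with 263 and 679 (1.34-fold, 1.16 to 1.55). Rgs2 itself was at 0.881-fold. With 1 library per group these values have no replicate check.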
